A study of Mus musculus with 2 samples.

Results

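Adipocyte precursors that lie midway between the interstitial progenitor state and the committed preadipocyte state were described in subcutaneous fat of mouse pups. Members were chosen by a score, D, taken per cell from 10 genes. Each gene's UMIs (unique molecular identifiers, which count single captured transcripts) were set to a total of 10000 in every cell, and the natural log of 1 plus that level was taken. The mean over the 5 committed genes Col15a1, Col4a1, Col4a2, Lpl and Icam1 was then taken from the mean over the 5 progenitor genes Dpp4, Wnt2, Bmp7, Anxa3 and Pi16. Cells between the 40th and 60th percentiles of D were the members, 1334 of 6670 kept cells. The top 20% of D (the progenitor pole) and the bottom 20% (the committed pole) held 1334 cells each. The members' levels of those 10 genes are fixed by that choice, and they are given below as a description only.

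Subcutaneous fat grows from fibroblast-like precursors. In the usual ordering, Dpp4- and Pi16-expressing progenitors of the interstitial septa give rise to committed preadipocytes, which express Icam1, lay down basement membrane collagens and take up lipid before they become fat cells. The same tissue also holds stromal cells that regulate fat cell formation, marked by F3, and matrix fibroblasts rich in elastin.

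The cells came from wild-type pups aged 12 days that had been cross-fostered onto dams with milk fat of a high or a low n-6/n-3 polyunsaturated fatty acid ratio. Adipocyte precursors were taken from the digested subcutaneous depot by a flow sort whose markers the labels do not give, and each diet gave 1 sample for droplet capture and 3′ sequencing. The labels describe the cells both as cryopreserved, thawed and cleared of permeable cells, and as fresh. They give neither the number nor the sex of the pups behind a sample. The joined count matrix parts the libraries by a barcode suffix that no label ties to a diet, so libraries 1 and 2 are named without a diet and no diet comparison was made. At least 4 UMIs of Xist, a transcript of female cells, were in 51.2% of members of library 1 and 46.0% of those of library 2. At least 1 Y-linked UMI was in 38.2% and 41.3%. Each library thus held cells of female and of male pups, so pups were pooled, in a number unknown here. Library 1 had 3321 barcodes and 42092816 UMIs, and library 2 had 3584 barcodes and 43491307 UMIs. Barcodes with few genes (4), a high mitochondrial share (18) or cycling transcripts (216) were left out, some for more than 1 reason, and 3220 and 3450 cells were kept. No barcode sequence belonged to a member in both libraries, although 17 sequences occurred in both and 6 members carried one of them. With 1 library per diet there is no replicate, no p-value was computed, and each interval is a 95% interval for counting error only.

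Members made up 21.0% of library 1 (676 cells, interval 19.6 to 22.4%) and 19.1% of library 2 (658 cells, 17.8 to 20.4%). The intervals of these shares overlapped. Their D ran from -0.0524 to 0.652, with a median of 0.362, against medians of 1.22 at the progenitor pole and -1.24 at the committed pole. The band did not sit in the middle of the gap. On a scale where the committed pole's mean D is 0 and the progenitor pole's is 1, the members' mean D lay at 0.636. D had a hump on each side, and the histogram's lowest bin between them (100 cells, against 169 and 299 at the humps) lay just below the members' lower bound. The nearest cell outside the band had a D of -0.0530 below and 0.653 above, so the bounds cut a continuous range. Within 0.05 of the lower bound were 74 members and 59 other cells, and within 0.05 of the upper bound were 129 members and 134 other cells.

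**Figure D1:**
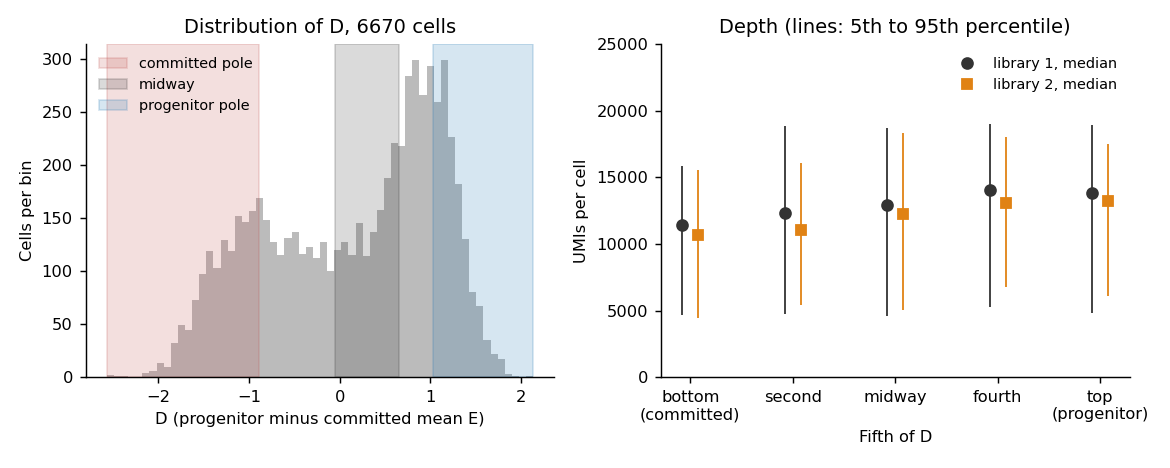
Left, number of cells per bin of D (60 bins, no unit) for all 6670 kept cells, with the bottom 20% (committed pole), the members and the top 20% (progenitor pole) shaded. Right, UMIs per cell in each 20% of D, with points at the median of each library and lines from the 5th to the 95th percentile; the members' medians (12890.5 and 12228 UMIs) lie between those of the poles.

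Members were not shallow cells. Their median was 12537 UMIs and 2957 genes per cell, against 10976 UMIs and 2642.5 genes at the committed pole and 13468.5 UMIs and 3109 genes at the progenitor pole. Depth thus increased along D up to the cells between the 60th and 80th percentiles (13518 UMIs), and members took an intermediate place. With every cell thinned to 7388 UMIs, which left out 160 members, 109 cells of the progenitor pole and 146 of the committed pole, the median genes per cell were 2174 in members, 2196 at the progenitor pole and 2093 at the committed pole. The mitochondrial share had a median of 1.76% in members, 1.73% and 1.80% at the progenitor and committed poles.

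The markers used to define the band were at intermediate levels in sums of counts, as the rule makes them. Dpp4, a surface peptidase of interstitial progenitors, was at 178 UMIs per 1000000 UMIs of the summed class (CPM) in library 1 and 185 CPM in library 2 in members, against 293 and 297 CPM at the progenitor pole and 40.3 and 38.2 CPM at the committed pole. Pi16, a secreted protein of the same progenitors, was at 1360 and 1369 CPM, against 2836 and 2830 CPM, and 559 and 538 CPM. Members were thus between the poles for both in each library. Col15a1, a basement membrane collagen of committed cells, was at 38.5 and 50.2 CPM, against 22.0 and 23.1 CPM at the progenitor pole and 409 and 489 CPM at the committed pole. Lpl, the lipase that frees fatty acids from lipoproteins, was at 534 and 531 CPM, against 277 and 288 CPM, and 1626 and 1547 CPM.

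In linear CPM, the rule lists did not stand equally far along. Their genes define D, also in the random split below, so their positions are a description. The order of the lists was read on this scale only. A gene's position is given as the members' level between the committed pole (0) and the progenitor pole (1) in linear CPM, where an equal mix of the pole means gives 0.5. The progenitor rule genes stood at 0.56 (Dpp4), 0.51 (Anxa3), 0.36 (Pi16), 0.33 (Wnt2) and 0.20 (Bmp7), that is near or below the equal mix. The committed rule genes stood at 0.95 (Col15a1), 0.89 (Col4a1), 0.86 (Col4a2), 0.81 (Lpl) and 0.71 (Icam1), close to the level of the progenitor pole. With each UMI dealt at random to 1 of 2 parts, D taken from 1 part and the levels from the other, the same genes stood at 0.34 to 0.65 and at 0.74 to 0.96. Bmp7, a BMP ligand, was lowest of the progenitor genes in both readings. Of the cells midway by the first part of the UMIs, 881 (66.0%) were members by all UMIs and 20 were at a pole.

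Genes that the rule did not use were placed in the same way. Of 4870 genes at 20 CPM or more at a pole, 399 (8.19%) were at least 2-fold apart between the poles in both libraries, 163 (3.35%) higher at the progenitor pole and 236 (4.85%) higher at the committed pole. In members, 381 of the 399 lay between the poles, with a median position of 0.735 (interquartile range 0.603 to 0.855), and 344 lay above 0.5. The members' level was therefore mostly nearer to that of the progenitor pole, as was their D. Genes higher at the committed pole had a median position of 0.791 and genes higher at the progenitor pole one of 0.651. On log2(CPM + 5) these medians were 0.68 and 0.75, so which programme was the farther along depends on the scale. With the same number of cells taken nearest to the midpoint of the poles' mean D, 767 of them members, the median position of all genes apart was 0.543.

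**Figure D2:**
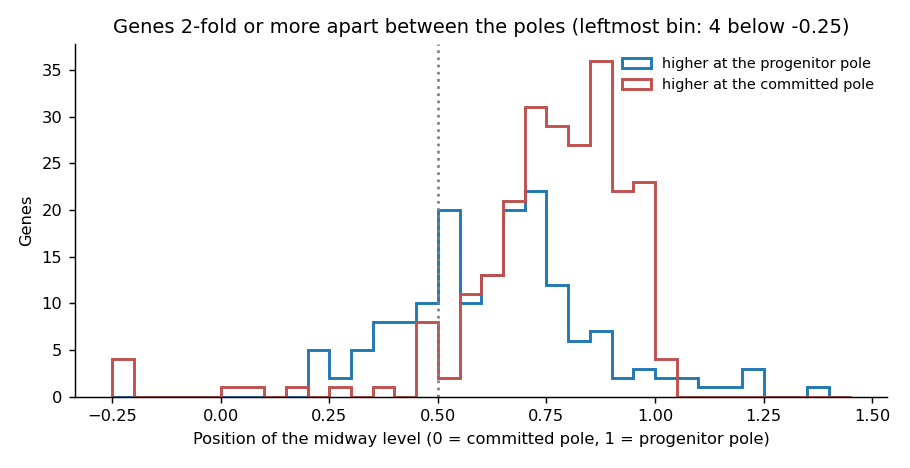
Number of genes by the position of the members' level between the poles (0 is the level of the committed pole, 1 that of the progenitor pole, linear CPM), drawn separately for 163 genes higher at the progenitor pole and 236 higher at the committed pole, with the equal mix at 0.5 dotted. Most genes lie right of the dotted line, with 55 to its left; the leftmost bin holds the 4 haemoglobin genes below -0.25.

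Several genes higher at the progenitor pole were at their full level in members. Sfrp2, a secreted Wnt antagonist, was at 969 and 1051 CPM in members of libraries 1 and 2, against 844 and 934 CPM at the progenitor pole and 291 and 323 CPM at the committed pole. Fn1, the matrix protein fibronectin, was at 3608 and 4160 CPM, against 3510 and 3899 CPM, and 1495 and 1490 CPM. Gas7, a cytoskeletal adaptor, was at 219 and 260 CPM, against 178 and 251 CPM, and 58.5 and 70.4 CPM. Gas7 is also on the Smpd3-type list described below. In each library these genes were a little higher in members than at the progenitor pole and well above the committed pole, with positions of 1.20, 1.07 and 1.15. Pcolce2, an enhancer of procollagen processing, stood at 0.94 and Cd24a, a surface protein of early precursors, at 0.97.

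Other genes higher at the progenitor pole were far from full level. Krtdap, a secreted epidermal protein, was at 240 and 234 CPM in members, against 629 and 674 CPM at the progenitor pole and 81.5 and 73.9 CPM at the committed pole, a position of 0.28. Igfbp5, an IGF binding protein, was at 554 and 591 CPM, against 1289 and 1349 CPM, and 155 and 212 CPM, a position of 0.34. Akr1c18, a steroid and prostaglandin reductase, stood at 0.39 and Cgref1 at 0.35. These genes were between the poles in each library, together with the rule genes Bmp7, Wnt2 and Pi16 on the low side.

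Lipid handling genes of the committed pole were near their low level in members. Fabp4, a fatty acid binding protein of preadipocytes and fat cells, was at 207 and 176 CPM in members, against 153 and 122 CPM at the progenitor pole and 1601 and 1583 CPM at the committed pole. Cd36, a fatty acid translocase, was at 37.6 and 24.0 CPM, against 21.6 and 17.5 CPM, and 288 and 246 CPM. Members were close to the progenitor pole for both, at positions of 0.96 and 0.95. Both genes are also expressed by capillary endothelium, and the 8 endothelial markers took the same order, with a sum of 39.7 CPM in members, 34.3 CPM at the progenitor pole and 373 CPM at the committed pole. Their part in the Fabp4 and Cd36 levels was not tested. Pparg, the master regulator of fat cell formation, was at 10.2 CPM in members, 3.03 CPM at the progenitor pole and 24.2 CPM at the committed pole, a position of 0.66. Cebpa, its partner, was at 8.65, 6.28 and 24.0 CPM.

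By contrast, a few genes higher at the committed pole were at or near the level of that pole in members. Cd9, a tetraspanin used in sorting fibroblast-like progenitors, was at 207 and 171 CPM in members, 78.4 and 71.3 CPM at the progenitor pole and 208 and 191 CPM at the committed pole, a position of 0.08. Igf1, the growth factor, was at 223 and 188 CPM, against 65.1 and 61.8 CPM, and 239 and 273 CPM, a position of 0.26. Members overlapped the committed pole in level for Cd9 across libraries and were under it for Igf1. Mgp, a matrix inhibitor of calcification, stood at 0.02 (45.3 CPM in members, 11.4 and 46.1 CPM at the progenitor and committed poles). Mgp is also on the F3-type stromal list described below.

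A small set of genes was highest midway. Of 4512 genes measured at 20 CPM or more in members, 13 (0.288%) were at least 25% above both poles in both libraries, after 5 CPM was added to each level. A secreted Wnt antagonist, elastic fibre and cartilage-type matrix genes, a calcium-binding protein and macrophage genes were among them. Over all genes at any fold, 21.1% of 7160 lay above both poles in members, 63.3% between them and 15.5% below both. Genes called in 1 library were looked up in the other as a check. Of 29 genes called in library 1 by itself, 10 were also called in library 2 and 21 lay above both poles there. Of 25 genes called in library 2 by itself, 10 were also called in library 1 and 20 lay above both poles there.

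Sfrp4, a secreted frizzled-related Wnt antagonist (GRCm38 chromosome 13, 19623104 to 19632994, plus strand), was at 853 and 536 CPM in members of libraries 1 and 2. It was at 333 and 232 CPM at the progenitor pole and at 301 and 206 CPM at the committed pole. Members of each library were above both poles of either library. Over both libraries its level was 699 CPM (686 to 712), which was 2.50-fold (2.42 to 2.59) that of the progenitor pole and 2.78-fold (2.68 to 2.89) that of the committed pole. Along D it was highest between the 40th and 45th percentiles, and the cells between the 20th and 40th percentiles (682 CPM) were nearly as high as the members, while those between the 60th and 80th were at 342 CPM. A UMI of Sfrp4 was seen in 89.4% of members, and the 67 members richest in it held 34.6% of its UMIs. Sfrp4 passed in all 16 alternative processings applied to each named gene, and no other named gene did.

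Eln, which encodes elastin (chromosome 5, 134702593 to 134747323, minus strand), was at 2035 and 1166 CPM in members. It was at 1053 and 785 CPM at the progenitor pole and 878 and 655 CPM at the committed pole. Members were above both poles within each library. The fold over both libraries was 1.77 (1.74 to 1.81) and 2.12 (2.07 to 2.16). Along D, Eln was highest between the 45th and 50th percentiles (2331 CPM), and at 1777 CPM between the 35th and 40th. The 67 members richest in Eln held 47.7% of its UMIs, so the level rested on part of the members.

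Cilp, a cartilage intermediate layer protein (chromosome 9, 65265180 to 65280605, plus strand), was at 36.9 and 27.3 CPM in members. It was at 7.48 and 7.80 CPM at the progenitor pole and 7.38 and 11.1 CPM at the committed pole, so members stood above both poles in each library. C1qtnf3, a C1q/TNF-related secreted protein, was at 29.8 and 13.8 CPM, against 9.07 and 8.34 CPM, and 9.79 and 8.02 CPM. Both were rare, with a UMI in 12.4% and 12.5% of members, and the 67 richest members held 80.7% and 72.3% of their UMIs. Cilp was 4.21-fold (3.48 to 5.13) over the progenitor pole and 3.45-fold (2.86 to 4.19) over the committed pole. Along D, Cilp was highest between the 35th and 40th percentiles (51.3 CPM), just below the band, against 32.2 CPM in members.

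S100a4, a calcium-binding protein of motile fibroblasts and myeloid cells (chromosome 3, 90603771 to 90606045, plus strand), was at 60.1 and 60.7 CPM in members. It was at 34.7 and 22.0 CPM at the progenitor pole and 28.5 and 31.2 CPM at the committed pole. The 2 libraries gave nearly the same level in members, above every pole level. The fold was 2.16 (1.94 to 2.41) and 2.02 (1.80 to 2.26). Along D, S100a4 was highest between the 40th and 45th percentiles (89.5 CPM). The bins between the 25th and 40th percentiles, outside the band, were at 64.1 to 73.2 CPM, against 60.4 CPM in members. Ace, the angiotensin-converting enzyme, was at 66.0 and 72.9 CPM in members, against 34.7 and 41.6 CPM, and 46.1 and 48.9 CPM, and its UMIs were spread widely, with 23.1% in the 67 richest members. It was at 73.1 CPM between the 30th and 35th percentiles and 79.4 CPM between the 35th and 40th, against 69.3 CPM in members.

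Smpd3, a neutral sphingomyelinase (chromosome 8, 106252548 to 106337988, minus strand), differed in level between libraries. It was at 71.5 CPM in members of library 1 and 186 CPM in those of library 2, against 47.0 and 137 CPM at the progenitor pole and 9.51 and 19.5 CPM at the committed pole. Members exceeded both poles within each library, yet library 1 members were under the progenitor pole of library 2. Its level was 8.62-fold (7.49 to 9.96) that of the committed pole and 1.34-fold that of the progenitor pole (127 CPM, 122 to 133, against 95.1 CPM, 90.6 to 99.8). Along D it was highest between the 65th and 70th percentiles, outside the band.

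Cd44, a hyaluronan receptor, was at 277 and 271 CPM in members, against 217 and 203 CPM, and 179 and 191 CPM, with a UMI in 85.1% of members. A UMI of Itga11 was seen in 34.6% of members and one of Pcsk5 in 43.9%. Itga11, a collagen-binding integrin subunit, was at 33.4 and 42.9 CPM, against 20.8 and 29.5 CPM, and 23.1 and 28.1 CPM. Pcsk5, a proprotein convertase, was at 63.2 and 61.5 CPM, against 37.9 and 40.4 CPM, and 45.8 and 43.2 CPM. All 3 were above both poles in each library, by folds between 1.31 and 1.59 over both libraries. Along D, Cd44 was highest between the 30th and 35th percentiles (294 CPM) and Itga11 between the 35th and 40th (42.6 CPM), both below the band. Ppp2r2b, a regulatory subunit of protein phosphatase 2A, was the remaining precursor gene at 24.7 CPM, against 17.8 and 13.3 CPM. The calls of S100a4, C1qtnf3, Cd44, Itga11, Pcsk5 and Ppp2r2b ended, with the members still above both poles, when cells holding 3 or more UMIs of another cell type's markers were left out (3591 cells, 749 of them members). Erythroid markers alone reached 3 UMIs in 653 of 676 members of library 1, against 2 of 658 in library 2. At the progenitor and committed poles of library 1 they did so in 97.4% and 96.9% of cells. That setting thus left few cells of library 1, while a call needs both libraries.

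Retnla and Pf4 completed the set of 13. Retnla, a resistin-like secreted protein, was at 82.5 and 16.5 CPM in members, against 17.9 and 5.34 CPM, and 17.6 and 4.40 CPM. Pf4, the platelet factor 4 chemokine, was at 46.2 and 15.6 CPM, against 12.0 and 5.13 CPM, and 22.3 and 9.96 CPM. Members of each library were above both its own poles, with a level in library 1 several times that in library 2. Their UMIs were in few cells: the 15 members with 10 or more UMIs of macrophage and monocyte markers, 1.12% of members, held 77.8% of the UMIs of each. In the 1299 members with fewer than 3 such UMIs, Retnla was at 11.4 CPM and Pf4 at 6.31 CPM, while Sfrp4 was at 701 CPM and S100a4 at 54.4 CPM. Without cells carrying macrophage markers or many erythroid UMIs, 13 genes were called, 11 of them shared, and Retnla and Pf4 were not among them. Pf4 is itself on the macrophage marker list, so its levels in these groups and its lost call follow from the choice of cells. Retnla is not on that list.

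**Figure D3:**
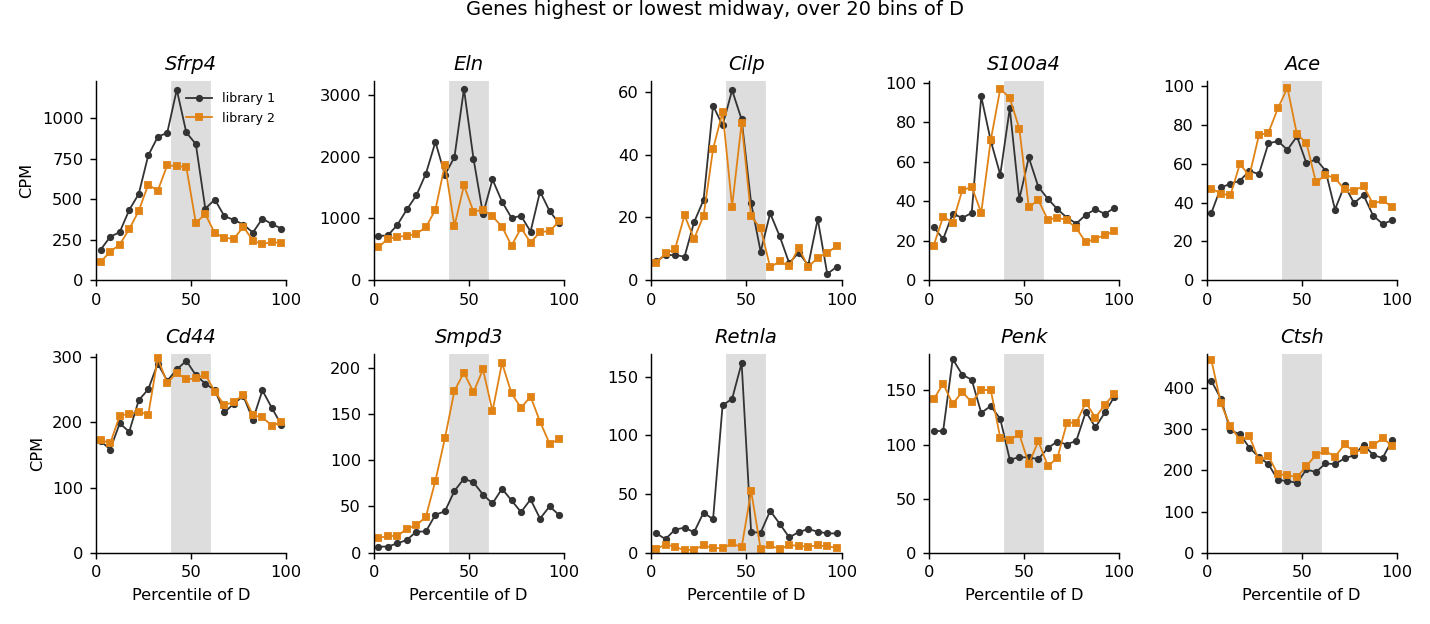
CPM of 10 genes in 20 bins of equal cell number along D, from the committed pole (0) to the progenitor pole (100), one line for each library; the members' band is shaded. Sfrp4, Eln, Cilp and Ace are highest in or next to the band in both libraries, S100a4 so in library 2 and at the 25th to 30th percentile in library 1. Smpd3 stays high beyond the band, Retnla is high in few bins of each library, and the low point of Ctsh lies in the band in both libraries and that of Penk in library 1 (60th to 65th percentile in library 2).

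Fewer genes were lowest midway. Of 4048 genes at 20 CPM or more in the lower pole, 2 (0.0494%) were at least 20% below both poles in both libraries. Penk, which encodes proenkephalin (chromosome 4, 4133531 to 4138819, minus strand), was at 87.3 and 100 CPM in members, against 130 and 137 CPM at the progenitor pole and 144 and 146 CPM at the committed pole. Both members' values were below all 4 pole values. The progenitor pole was 1.43-fold (1.34 to 1.52) and the committed pole 1.55-fold (1.45 to 1.66) over the members. Cells just above the band were as low, so the low level of Penk was not particular to members. Penk was at 88.5 CPM between the 60th and 65th percentiles and 94.8 CPM between the 65th and 70th, against 93.5 CPM in members. Ctsh, a lysosomal cathepsin (chromosome 9, 90054152 to 90076089, plus strand), was at 185 and 206 CPM, against 251 and 262 CPM, and 341 and 352 CPM. The members were again below each pole in each library. The poles were 1.31-fold and 1.77-fold over the members (257 CPM, 249 to 265, and 347 CPM, 337 to 357, against 196 CPM, 189 to 202). Ctsh was also low just below the band, at 183 CPM between the 35th and 40th percentiles. Neither the Penk nor the Ctsh call held without cells holding 3 or more UMIs of another cell type's markers, with both genes still lower in members than at either pole. That setting left few cells of library 1. No call remained with a fold of 1.5.

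Members were a mix by other marker lists. Each cell was scored by the mean log level of a list, and the cells in the top 10% of all kept cells were counted, a range of scores and not a cell type. The Smpd3-type list (Smpd3, Daglb, Gas7 and Adm) had 18.4% of members in its top 10% (16.4 to 20.6%), against 9.52% of the progenitor pole and 0.750% of the committed pole. By library the members' share was 10.7% in library 1 and 26.4% in library 2. The Cilp-type matrix list held 13.4% of members (11.6 to 15.4%), against 3.97% and 9.90% at the progenitor and committed poles, with 17.2% between the 20th and 40th percentiles. The F3-type stromal list held 7.80% of members (6.41 to 9.37%), against 0.675% and 16.9%, with 23.5% between the 20th and 40th percentiles. The progenitor list outside the rule held 4.20% of members, against 29.2% of the progenitor pole, and the committed list outside the rule held 2 members (0.150%), against 40.9% of the committed pole.

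No member was in the top 10% of both the progenitor and the committed list, which allows a share of up to 0.225%. As only 2 members were in the top 10% of the committed list, this count says little about the 2 programmes in single cells. The F3-type and Cilp-type lists shared 38 members, and the Smpd3-type list shared 11 with the Cilp-type, 10 with the progenitor and 7 with the F3-type list. The other 812 members (60.9%, 58.2 to 63.5%) were in the top 10% of none of the 5 lists, against 59.9% of the progenitor pole and 41.2% of the committed pole. Near the bounds of these scores, 66 Smpd3-type, 41 Cilp-type and 46 F3-type members lay less than 0.1 above, and 94, 65 and 178 members less than 0.1 below.

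**Figure D4:**
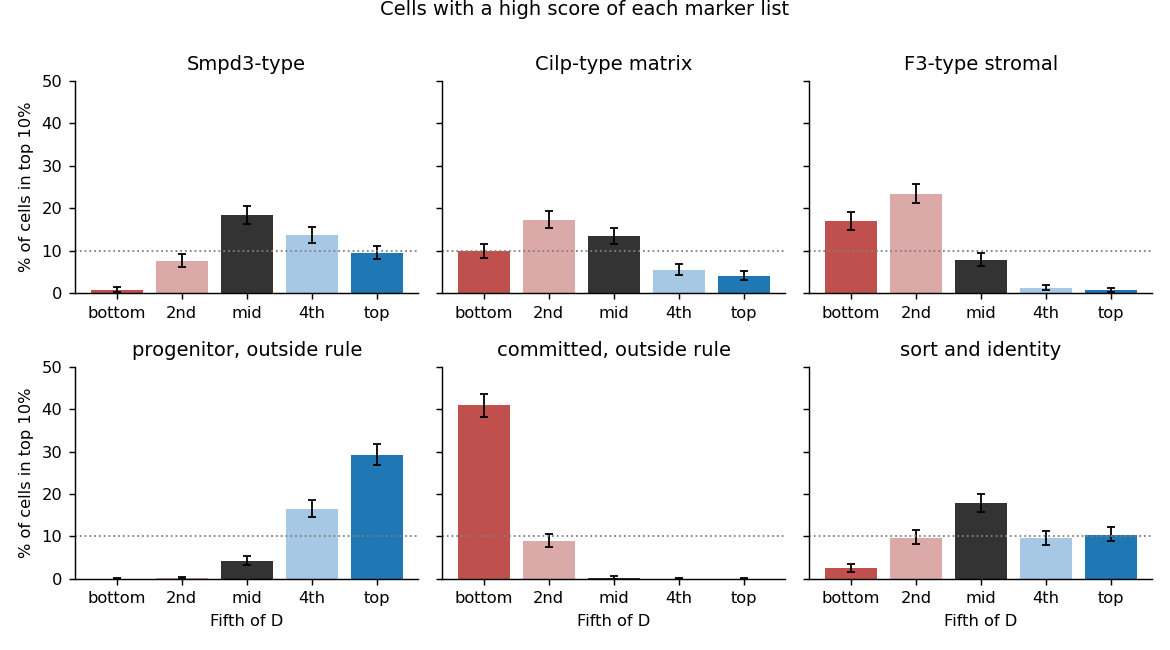
Percent of cells of each 20% of D that are in the top 10% of a marker list, both libraries together, with exact 95% binomial intervals as lines and the 10% over all cells dotted. The Smpd3-type and the sort and identity lists have their tallest bar midway (18.4% and 17.8%), and the Cilp-type and F3-type lists between the 20th and 40th percentiles.

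The genes highest midway were divided among these kinds of members. The 179 members in the top 10% of the Cilp-type list held 37.0% of the members' Sfrp4 UMIs at 1896 CPM (1839 to 1953), and 61.4% of the Eln UMIs at 7248 CPM (7136 to 7360). Cilp, C1qtnf3 and Eln are themselves on that list, so their high level there follows from the choice of cells, while Sfrp4 is not. The 104 F3-type members held 19.6% of the Sfrp4 UMIs at 1775 CPM and 31.4% of the S100a4 UMIs at 246 CPM (220 to 275). S100a4 was at 47.8 CPM in the Cilp-type members. The 246 Smpd3-type members held 61.6% of the Smpd3 UMIs, which follows from the choice of cells, as Smpd3 is on that list. In them Sfrp4 was at 424 CPM and Cd44 at 292 CPM.

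In the 812 members of none of the 5 lists, Sfrp4 was at 464 CPM (451 to 478), above the 279 and 251 CPM of the whole progenitor and committed poles. Ace was at 66.7 CPM and Cd44 at 278 CPM in them, also above both whole poles. Eln was at 723 CPM (706 to 740) and Cilp at 5.96 CPM in them. Both are on the Cilp-type list that chose these members, so their lower level follows from the choice, and the whole poles keep such cells. With all cells in the top 10% of the Cilp-type, F3-type or Smpd3-type list left out of members and poles alike, which removed 474 members, 4 genes were highest midway, and 3 of the 13 were among them: Sfrp4, Ppp2r2b and Retnla. The fourth was Lyz2, a macrophage gene.

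A list of signalling genes or of any other kind is described by the genes measured at 10 CPM or more in some class, and by the median log2 ratio of members to the mean of the poles, which was 0.0074 over all genes. Of 19 Wnt pathway genes, 4 lay above both poles, 14 between and 1 below both, with a median of 0.053. Rspo3, a Wnt agonist, was at 13.7 CPM in members, 38.8 CPM at the progenitor pole and 5.55 CPM at the committed pole. Of 26 BMP and TGF-beta genes, 8 lay above both poles, 18 between and none below both, with a median of 0.11. Chrdl1, a BMP antagonist, was at 102 and 114 CPM in members, against 53.7 and 57.8 CPM at the progenitor pole and 116 and 102 CPM at the committed pole, so members lay on either side of the committed pole. Bmp2 was at 61.5 and 68.5 CPM, against 58.9 and 60.4 CPM, and 33.9 and 33.5 CPM, so members matched the progenitor pole or were slightly above it. Of 8 Notch genes, 1 lay above both poles, 6 between and 1 below both, with a median of -0.17. Dlk1, a Notch-family inhibitor of fat cell formation, was at 350 and 413 CPM in members, against 224 and 240 CPM, and 1547 and 1291 CPM.

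Of 19 IGF, PDGF and FGF pathway genes, 3 lay above both poles, 15 between and 1 below both, with a median of -0.00083. The gene below both was Igfbp3, an IGF carrier, at 191 and 185 CPM in members, against 385 and 314 CPM, and 191 and 229 CPM. It was under the progenitor pole in each library, and level with the committed pole in library 1. Igfbp7 was at 641 and 667 CPM in members, against 251 and 238 CPM, and 2376 and 2501 CPM.

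Of 17 adipogenic regulators, 2 lay above both poles and 15 between, with a median of 0.00097. Klf4, a transcription factor, was at 912 and 1162 CPM in members, against 1005 and 1241 CPM at the progenitor pole and 580 and 714 CPM at the committed pole. Of 23 fatty acid oxidation genes, 2 lay above both poles, 13 between and 8 below both, with a median of -0.039. Acadvl, a mitochondrial acyl-CoA dehydrogenase, was at 36.6 and 40.6 CPM, against 43.3 and 46.6 CPM, and 39.9 and 40.2 CPM, so the range of members touched the committed pole. Of 17 fatty acid synthesis and desaturation genes, 1 lay above both poles, 12 between and 4 below both, and of 15 fatty acid uptake and storage genes these counts were 2, 11 and 2. Ptgs2, the inducible prostaglandin synthase, was at 76.8 and 85.6 CPM, against 124 and 142 CPM, and 23.3 and 30.5 CPM, among 11 prostanoid genes of which 10 lay between the poles and 1 below both.

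Of 27 interstitial matrix genes, 4 lay above both poles, 20 between and 3 below both, with a median of -0.012, and of 13 basement membrane genes outside the rule, 6 lay above both and 7 between, with a median of 0.10. Lamc1, a laminin chain, was at 293 and 294 CPM in members, against 243 and 256 CPM, and 256 and 277 CPM, above both poles in each library by less than 25%. Col12a1, a fibril-associated collagen, was at 53.8 and 38.9 CPM, against 31.6 and 19.7 CPM, and 51.7 and 39.1 CPM, so members matched the committed pole. Of 7 Cilp-type genes, 3 were above both poles and 4 between. Mfap4, an elastic fibre glycoprotein, was at 449 and 261 CPM, against 208 and 126 CPM, and 799 and 566 CPM. All 10 F3-type genes lay between the poles over both libraries (9 with 1 below both in library 1, and 7 with 3 above both in library 2), and all 4 Smpd3-type genes above both (median 0.72). Adm, the vasodilator adrenomedullin, was at 89.8 and 98.4 CPM, against 38.6 and 40.9 CPM, and 89.8 and 76.3 CPM, so in library 1 it equalled the committed pole.

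Most inflammatory genes lay between the poles. Of 20 such genes, 18 lay between and 2 above both, with a median of -0.13, and 9 were among those higher at the committed pole. Ccl2, a monocyte chemokine, was at 2171 and 2615 CPM in members, against 1408 and 1884 CPM, and 2219 and 2298 CPM, so members were level with the committed pole in library 1 and above it in library 2. Cxcl1, a neutrophil chemokine, was at 2868 and 2820 CPM, against 2045 and 2015 CPM, and 4888 and 4847 CPM. Of 21 dissociation stress genes, 18 lay between and 3 above both, with a median of -0.15. Of 12 interferon response genes, 9 lay between, 2 above both and 1 below both.

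No listed cell cycle gene was called highest or lowest midway. Of 10 replication genes, 3 lay above both poles, 4 between and 3 below both, with a median of 0.022, and cycling cells had been left out by the rule. Rrm1, a ribonucleotide reductase subunit, was at 13.2 and 14.7 CPM in members, against 24.3 and 24.1 CPM, and 8.51 and 10.1 CPM. Of the genes on the sort and precursor identity list, 4 of 12 lay above both poles and 8 between, with a median of 0.15. The labels do not say which of them, if any, were used in this flow sort. Ly6a, which encodes Sca-1, was at 3267 and 3060 CPM, against 3137 and 2964 CPM, and 2410 and 2306 CPM, so members were at the level of the progenitor pole. In the top 10% of the summary score of these 12 genes were 17.8% of members , against 10.4% and 2.47% at the progenitor and committed poles.

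Both programmes were seen in most single members. At least 2 genes of each rule list had a UMI in 96.6% of members (1288 cells, 95.4 to 97.5%), against 84.9% at the progenitor pole and 81.0% at the committed pole. After thinning the shares were 92.6% (90.9 to 94.0%), 65.6% and 70.7%. Cells between the committed pole and the band had a share of 95.4%, and 91.5% after thinning. In cells between the band and the progenitor pole it was 95.6%, and 83.9% after thinning. A high share was thus not particular to members. The same genes chose the members, so these shares are a description. As a background, of 34 cells with 10 or more macrophage marker UMIs, at a median of 7937.5 UMIs, 70.6% also had 2 genes of each list, and 83.3% of the 18 that could be thinned. No member was in the upper range of both programmes, defined as at or above the lower quartile of the progenitor pole for one and of the committed pole for the other (0 of 1334 cells, which allows a share of up to 0.225%). At or under the upper quartile of the opposite pole for both were 46 members (3.45%), with a median of 6812.5 UMIs.

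Droplets that hold cells of both sexes were counted with Xist, transcribed from the inactive X of females, and Y-linked genes. At least 4 Xist UMIs and 2 Y-linked UMIs occurred together in 19 members (1.42%, 0.860 to 2.22%), 9 cells of the progenitor pole (0.675%, 0.309 to 1.28%) and 13 of the committed pole (0.975%, 0.520 to 1.66%). The intervals overlapped. Among members the share was 0.449% (0.0545 to 1.61%), 1.35% (0.497 to 2.92%) and 2.47% (1.24 to 4.38%) when members were ranked by the sum of both programmes and parted into low, middle and high groups. These groups held 445, 444 and 445 cells with medians of 11253, 13233.5 and 13033 UMIs. Droplets with cells of the same sex are not seen by this measure, and no doublet caller was run, so doublets remain among the members.

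Cells of other types were rare in the band but not evenly spread over D. At least 10 macrophage marker UMIs were found in 15 members (6 in library 1 and 9 in library 2), 0 cells of the progenitor pole (which allows up to 0.225%) and 4 of the committed pole. At least 5% of UMIs were from erythroid genes in 14 members, all in library 1, 0 cells of the progenitor pole and 3 of the committed pole. The 9 macrophage markers summed to 113 CPM in members, 28.2 CPM at the progenitor pole and 44.7 CPM at the committed pole, with none at 0. The 5 erythroid markers summed to 7596, 403 and 1197 CPM. Hba-a1, an alpha-globin gene whose reads cannot be told apart surely from those of its near copy Hba-a2, was at 4000 CPM in members of library 1 and 4.13 CPM in those of library 2. The 4 haemoglobin genes stood above both poles in library 1. In library 2, 3 of them were below both poles, and Hbb-bs (11.1 CPM) was between the poles (9.08 and 204 CPM).

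Markers of the remaining cell types had small sums in members, for some lists above both poles. Of the endothelial markers, Cldn5, a tight junction gene, was at 11.7 CPM in members, 10.8 CPM at the progenitor pole and 138 CPM at the committed pole. The 8 mural markers summed to 89.1, 104 and 122 CPM, and the 8 adipocyte markers to 4.14, 3.94 and 20.2 CPM, with Lep at 0 in members. The mural sum joins opposite orders. Kcnj8 was at 65.4 CPM in members, 86.7 CPM at the progenitor pole and 24.6 CPM at the committed pole. Rgs5 was at 4.27, 3.65 and 43.5 CPM, and Notch3 at 4.08, 3.37 and 34.0 CPM. Lymphocyte (5.55 CPM), mesothelial (16.9 CPM, with Msln, Upk3b, Lrrn4 and Upk1b at 0), Schwann (32.8 CPM, Sox10 at 0), muscle (21.0 CPM, Myf5 and Pax7 at 0) and epithelial (0.183 CPM, 4 of 6 markers at 0) sums were small in members. At the progenitor and committed poles the lymphocyte sums were lower, 0.971 and 1.22 CPM. So were the mesothelial (13.7 and 5.01 CPM), muscle (7.94 and 7.78 CPM) and epithelial (0.114 and 0 CPM) sums. The muscle sum of members was not above both poles in library 1. The Schwann sums were higher at the poles (33.4 and 45.4 CPM).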

How the data were processed

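The file is a matrix of whole-number UMI counts per gene and barcode, deposited by the authors without normalization. Per the submitters' processing notes, Cell Ranger (no version), Seurat 3.0.1 and mm10 were used. Barcodes with at least 500 genes, at most 10% mitochondrial UMIs and fewer than 2 Mki67 and Top2a UMIs were kept. The members and lists were chosen with earlier results of these data known.

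Counts were summed per class and library and given as CPM. Intervals are exact Poisson for sums, Clopper-Pearson for shares and conditional exact for ratios. Thinned cells were drawn down to 7388 UMIs (10th percentile). Named genes were the 10 rule genes, up to 15 called genes in each direction, up to 4 members of each list by change and up to 4 by level, and the 10 genes with the highest and lowest positions among those at 100 CPM or more, without Gm and Rik models, ribosomal, mitochondrial and Y-linked genes. Cd24a, Pcolce2, Mgp, Lamc1 and other list members given in the text were picked with their values known. Pref1 and Trac were not found by symbol. The midway calls were tested on counts simulated with counting error only: all 200 genes changed by 1.5-fold or 3-fold were called and 0 of 4277 unchanged genes were. The changed genes were drawn from those at 50 CPM or more. Recovery of lower genes, of smaller folds or of genes concentrated in few cells was not tested. Python 3.11.15, numpy 2.4.6, scipy 1.17.1 and pandas 2.3.3 were used, with edgeR 4.0.16 and DESeq2 1.42.0 for scaling factors only. Coordinates are from GENCODE for GRCm38. Alternatives covered scaling, level minimum, thinning, percentiles, poles, cells left out, libraries and the genes in D.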

Additional observations from a re-analysis of the deposited data

How the results depend on the processing

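The count of 13 genes highest midway was 8 with a minimum of 50 CPM, 43 with none, 8 with thinned cells, 29 in library 1 alone, 25 in library 2 alone and 4 with a fold of 1.5 (Cilp, Retnla, S100a4 and Sfrp4). Without cells holding 3 or more UMIs of another type's markers it was 9, of which 5 were among the 13 (Ace, Cilp, Eln, Sfrp4 and Smpd3). Through erythroid UMIs that setting left few cells of library 1. The count was 121 (6 of the 13) without cells holding 2 genes of each rule list, which left 621 of 6670 cells. By settings chosen after seeing the data, it was 4 without cells in the top 10% of the Cilp-type, F3-type or Smpd3-type list and 24 with members nearest to the midpoint of D. The count of 2 genes lowest midway was 1 with thinned cells (Ctsh) and 1 (Penk) with the 30th to 70th percentile, without Cilp-type, F3-type and Smpd3-type cells, and with D lacking Col4a1, Col4a2 and Icam1. Without cells holding other types' markers it was also 1, but this was Igfbp3, and neither Penk nor Ctsh was called. It was 0 with D lacking Dpp4 and Pi16 and with a fold of 1.5, 7 in library 1 alone, 86 (neither of the 2) without cells holding both programmes and 4 (Ctsh among them) at the midpoint. The 399 genes apart between the poles were 252 at 50 CPM. Their median position, 0.735, was 0.458 without cells holding both programmes, 0.844 without the Cilp-type, F3-type and Smpd3-type cells and 0.543 at the midpoint. It stayed between 0.689 and 0.755 in the other 19 settings.

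The members' median depth was 7388 UMIs after thinning by construction, and the share with Xist and Y-linked UMIs was then 0.250% in place of 1.42%. With the 30th to 70th percentile the Smpd3-type share was 15.7% in place of 18.4%, the F3-type share 9.37% in place of 7.80% and the sort and identity share 14.6% in place of 17.8% (15.5% with thinned cells). Pf4 is among the markers by which cells of other types were left out. The smaller log2 fold of Pf4 turned to -0.29 without cells of other types and to -0.25 without macrophage and erythroid cells. Without cells holding both programmes those of Smpd3, Itga11 and Penk turned to -0.36, -0.55 and 0.16. Without Cilp-type, F3-type and Smpd3-type cells, those of Cilp and C1qtnf3 turned to -0.017 and -0.069. Of 240 values of named genes over settings, 175 kept direction and side of the threshold, 58 only the direction and 7 neither. Except where the setting itself removes cells or genes, the cause of a change was not tested. No paired analysis was possible because each diet has 1 sample and the barcode suffixes carry no diet. Rare genes have few counts (529 UMIs of Cilp in members), which limits their precision.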

Other observations

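Sterol and prostanoid enzymes were described apart from the lists above, as values. Hmgcs1, an early enzyme of cholesterol synthesis, was at 96.1 and 94.1 CPM in members of libraries 1 and 2, against 59.5 CPM at the progenitor pole and 174 CPM at the committed pole over both libraries. Idi1, a later enzyme of the same path, was at 37.5 and 38.4 CPM, against 16.8 and 15.3 CPM, and 81.4 and 84.2 CPM. Members were between the poles for both, at positions of 0.69 and 0.67. The desaturase Scd1 was at 39.0 and 50.2 CPM, against 44.4 and 45.5 CPM, and 20.3 and 23.3 CPM, so members were level with the progenitor pole. Hpgd, which inactivates prostaglandins, was at 57.7 and 41.8 CPM, against 106 and 76.6 CPM, and 27.4 and 17.0 CPM, between the poles in each library.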
